A study of Arabidopsis thaliana with 18 samples.

Results

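The leaf transcriptomes of 2 transgenic Arabidopsis thaliana lines were compared at 0 h, the start of the induction series. One line carries an artificial microRNA (amiRNA) against NAA50 and the other an amiRNA of scrambled sequence that serves as the negative control, both under dexamethasone-inducible expression. The comparison takes every library labelled 0 h, which gives 6 of the 18 libraries of the series, 3 of each line, and all 23790 genes of the count table. Per the labels, the plants were 4 weeks old and grown in short days of 8 h light and 16 h dark. Each library was made from 0.4 g of the 4th leaf of 4 plants. The labels record a spray of 50 µM dexamethasone for all samples of both lines, with sampling 0, 12 and 24 h later, and do not say whether plants sampled at 0 h had been sprayed. Each line is named once, with no statement of how many independent insertions it stands for, so what differs at 0 h belongs to 2 lines, and the transgene insertion, the line's descent and the plants sampled cannot be told apart. Nothing states that the 3 libraries of a group were grown apart, so the p-values below measure the spread between libraries within groups. In the fit reported here all 18 libraries enter that spread, also those at 12 and 24 h.

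An amiRNA is a short RNA processed from an engineered precursor that guides cleavage of a matching messenger RNA. NAA50 is the catalytic subunit of an N-terminal acetyltransferase, an enzyme that adds an acetyl group to the first residue of many proteins, and Arabidopsis plants without it are dwarfed, with defence and endoplasmic reticulum stress responses switched on. A line comparison at 0 h shows the starting point of both lines in the series, and which genes already differ between them.

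NAA50 itself (chr5:3619152-3621511, TAIR10.1, plus strand) did not pass the test at 0 h. Its level in CPM (read counts relative to the library total, scaled between libraries by the trimmed mean of M values, TMM) was 13.4, 11.6 and 12.7 in NAA50 libraries 1 to 3, against 14.8, 13.8 and 13.4 in scrambled libraries 1 to 3. The highest NAA50-line library lay just below the lowest scrambled one. The log2 difference, NAA50 line minus scrambled line, was -0.16 ± 0.16 (SE from the fit to all 18 libraries, 3 a line and time). Its adjusted p was 0.664 in edgeR's quasi-likelihood test. The 95% interval runs from 70.3% to 114% of the scrambled level, and a lower level within that range was not detectable with 3 libraries a line. The 12 h and 24 h differences, -2.03 ± 0.18 and -2.28 ± 0.18, both passed (adjusted p = 5.38e-07 and 1.47e-07, edgeR). The other members of the list of 8 N-terminal acetyltransferase subunits lay between -0.19 and 0.22 at 0 h, with a list median of 0.07, and none of the 8 passed.

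Few genes separated the lines at 0 h. Of 18344 genes with enough counts to test, 18 (0.0981%) had an adjusted p under 0.05, 16 of them (0.0872%) higher in the NAA50 line and 2 (0.0109%) lower, against 8484 (46.2%) at 12 h and 8794 (47.9%) at 24 h. At an unadjusted p under 0.05, 2434 genes (13.3%) differed at 0 h. All 18 called genes had 3 NAA50-line values on one side of the 3 scrambled ones, as did 2883 genes (15.7%) among all tested. The median absolute log2 change was 0.189 at 0 h, about the size of the median SE there (0.188). It was 0.442 at 12 h and 0.459 at 24 h. The count of 18 depends on single libraries: it was 4, 3 and 354 without scrambled libraries 1, 2 and 3, and 5, 73 and 3 without NAA50 libraries 1, 2 and 3. A fit to the 6 libraries alone called 0 genes, with 1708 at an unadjusted p under 0.05, and DESeq2 on all 18 libraries called 308.

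**Figure D1:**
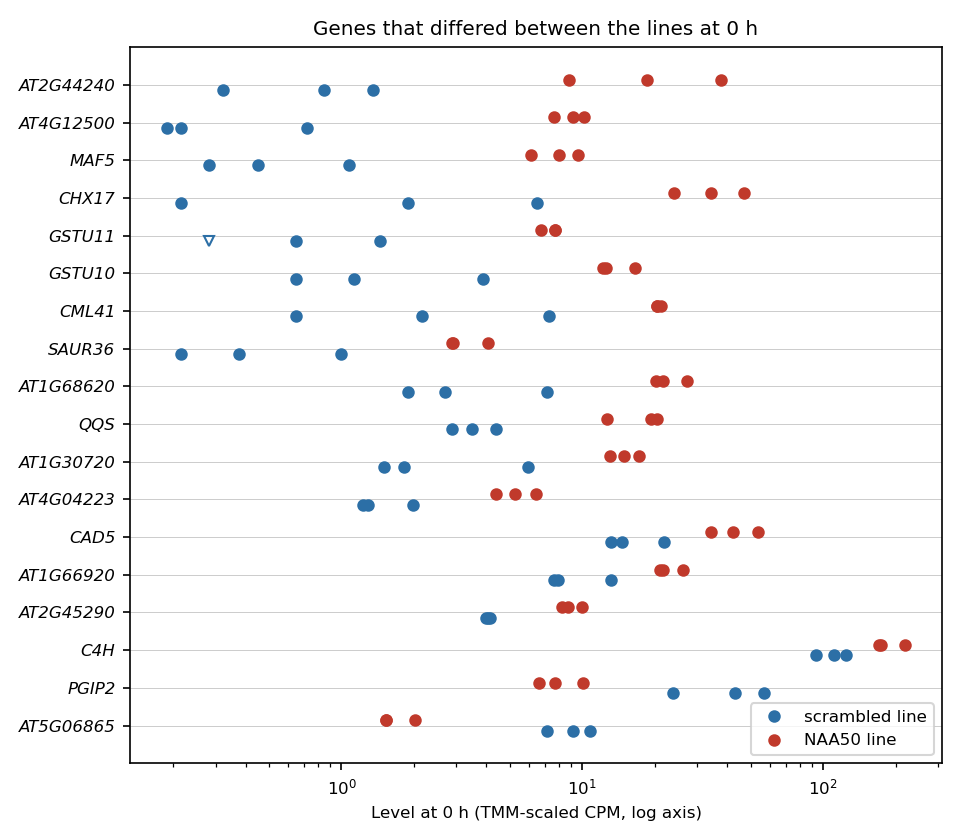
TMM-scaled CPM (log axis) of the 18 genes that passed the test at 0 h, one row per gene ordered by log2 change, with a point for each library of the NAA50 line (red) and the scrambled line (blue). The open triangle marks a library with 0 counts, drawn at the level of 3 counts; in every row the 2 lines occupy separate ranges.

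The libraries within a line were not alike, and this spread sets what the comparison can resolve. Totals were 10780809 to 11997901 counts per library, and 3 counts, the most that an observed 0 allows, equal 0.241 to 0.322 CPM (counting error only). The first principal component of the 6 libraries held 54.0% of the variance, with scrambled library 2 at one end (70.4) and NAA50 library 3 at the other (-53.3), while scrambled library 3 (-6.57) lay beside NAA50 library 2 (-5.26). Across 15887 genes, the median absolute log2 difference between 2 libraries of one line was 0.170 to 0.202 in the NAA50 line and 0.175 to 0.305 in the scrambled line. Between lines it was 0.142 to 0.402. The closest pair of all 15 was scrambled library 3 with NAA50 library 2, in which 232 genes differed by over 2-fold, and the farthest was scrambled library 2 with NAA50 library 3, in which 2211 did. The biological coefficient of variation at 0 h was 23.0% in the scrambled line and 19.5% in the NAA50 line. Without scrambled library 2 and NAA50 library 3 these became 16.9% and 15.02%. In the same order of lines it was 13.9% and 13.5% at 12 h and 19.0% and 18.7% at 24 h. Over all 18 libraries, as in the fit reported here, it was 18.16%, below both 0 h values. The p-values at 0 h thus rest in part on less variable libraries.

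**Figure D2:**
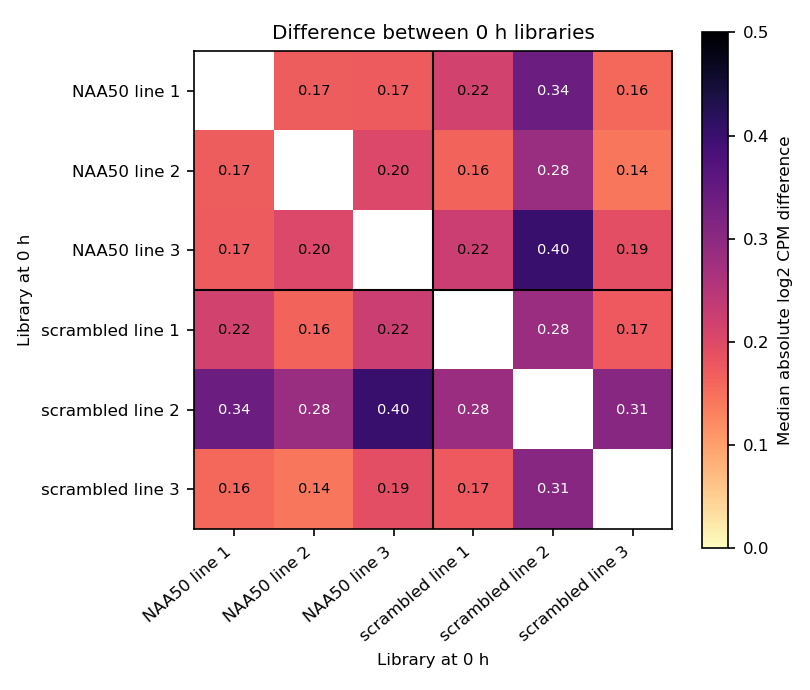
Median absolute log2 CPM difference over 15887 genes for each pair of the 6 libraries at 0 h, with black lines separating the NAA50 line from the scrambled line and empty cells on the diagonal. Scrambled library 2 stands 0.28 to 0.40 from every other library, and the lowest value, 0.14, joins libraries of different lines.

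Of the 18 genes, QQS, MAF5, PGIP2, SAUR36 and AT4G04223 differed in one direction at 0, 12 and 24 h. The later libraries are other samples than those at 0 h. As a share of the 16 genes higher at 0 h, 4 (25%) were also called higher at 12 h, where 21.9% of all genes were, and 7 (43.75%) at 24 h, where 23.9% were. The share at 12 h is near the background and that at 24 h lies above it, neither was tested, and the genes are described one by one.

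QQS (AT3G30720, chr3:12349047-12349933, TAIR10.1, plus strand) encodes a short protein found only in Arabidopsis thaliana that is known to shift leaf carbon and nitrogen between starch and protein. It had the smallest p of all genes at 0 h. Its level was 20.4, 19.3 and 12.6 CPM in NAA50 libraries 1 to 3 and 3.49, 4.402 and 2.88 CPM in scrambled libraries 1 to 3, so the lowest NAA50-line value was well above the highest scrambled one. The log2 difference was 2.28 ± 0.22 (adjusted p = 3.26e-04, edgeR), a 4.85-fold higher level. The gap was of the same size later, at 2.45 ± 0.22 at 12 h and 2.28 ± 0.22 at 24 h, and the tests of a shift from 0 h gave adjusted p of 0.728 and 0.999. Scrambled-line levels stayed between 2.18 and 3.56 CPM over the 6 later libraries of that line, and NAA50-line levels between 12.7 and 18.16 CPM. Its coding sequence is shown because the whole reading frame is 177 bases long, in 2 exons, with start and stop codons in capitals (RefSeq, TAIR10.1):
QQS coding sequence: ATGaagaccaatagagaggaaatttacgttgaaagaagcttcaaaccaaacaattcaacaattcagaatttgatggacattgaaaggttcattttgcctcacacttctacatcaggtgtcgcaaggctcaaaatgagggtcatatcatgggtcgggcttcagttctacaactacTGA

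MAF5 (AT5G65080, chr5:25997504-26002619, plus strand) encodes a MADS-box factor related to the floral repressor FLC and is the last gene of a tandem row, MAF2 to MAF5. Its level was 7.97, 6.11 and 9.57 CPM in the NAA50 line and 0.283, 1.07 and 0.4503 CPM in the scrambled line, where the lowest value is 3 counts. The log2 difference was 3.73 ± 0.46 (adjusted p = 0.00451, edgeR), with 4.83 ± 0.46 at 12 h and 2.62 ± 0.38 at 24 h. Its neighbour MAF4 read 5.43, 3.44 and 7.08 CPM against 0.283, 2.25 and 2.16 CPM, also without overlap, but the difference of 1.77 ± 0.51 did not pass (adjusted p = 0.186, edgeR); at 12 h it was 1.68 and passed (adjusted p = 0.0111). The transcripts of both genes match at 88.0% identity over 36.2% of MAF5, so some reads may be assigned to either. MAF2 (0.05 ± 0.10), MAF3 (-0.06 ± 0.14) and MAF1 (0.05 ± 0.10), a relative elsewhere in the genome, had intervals close to 0 and levels of 14.5 to 39.96 CPM in all 6 libraries. FLC itself, at 0.540 to 5.15 CPM, overlapped between the lines (1.1 ± 0.61, adjusted p = 0.432). Of the 9 tested members of the list of floral repressors and flowering-time genes, MAF5 alone passed, and the list median was 0.05. The floral integrators FT and TSF were too low to test: FT had a count in 1 of the 6 libraries and TSF in none.

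PGIP2 (AT5G06870, chr5:2133918-2135168, plus strand) encodes a polygalacturonase-inhibiting protein, a leucine-rich repeat protein of the cell wall that blocks fungal pectin-degrading enzymes. It was 1 of the 2 genes lower in the NAA50 line, at 7.72, 6.59 and 10.06 CPM against 23.8, 43.1 and 56.6 CPM. The log2 difference was -2.34 ± 0.30 (adjusted p = 0.00533, edgeR), -1.47 ± 0.29 at 12 h and -1.22 ± 0.29 at 24 h. The other lower gene, AT5G06865, is annotated as a non-coding RNA on the opposite strand of PGIP1, which it covers whole. It read 1.53, 1.53 and 2.01 CPM against 7.16, 10.7 and 9.19 CPM (-2.40 ± 0.35, adjusted p = 0.0226, edgeR). Unlike PGIP2, AT5G06865 did not differ past the test at 12 h (-0.09 ± 0.31) and was higher in the NAA50 line at 24 h (0.79 ± 0.30, adjusted p = 0.0404). PGIP1 pointed the other way at 0 h, at 36.5, 22.6 and 53.7 CPM against 18.19, 10.4 and 30.7 CPM (0.92 ± 0.36, adjusted p = 0.312), and was higher by 3.33 ± 0.37 at 12 h (adjusted p = 5.61e-06, edgeR). The kit is stranded but the strand setting of the counting is not given in the sources used here, so reads of AT5G06865 and PGIP1 may not be separable. AT5G06865 and PGIP2 start back to back and run apart, with 171 bases between them at chr5:2133747-2133917 (TAIR10.1). That stretch is printed on the plus strand because both called lower genes border it, with the 1 match to ACGTG, the core of the abscisic acid response element (ABRE), in capitals:
AT5G06865 to PGIP2: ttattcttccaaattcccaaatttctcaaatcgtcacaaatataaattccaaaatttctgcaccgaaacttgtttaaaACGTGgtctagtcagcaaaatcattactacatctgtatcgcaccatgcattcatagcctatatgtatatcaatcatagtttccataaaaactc

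SAUR36 (AT2G45210, chr2:18641563-18642739, plus strand) belongs to the small auxin up RNA family and is known as a senescence-associated gene. It was low in all 6 libraries, at 4.07, 2.87 and 2.90 CPM in the NAA50 line and 0.377, 0.215 and 0.991 CPM in the scrambled line (2.57 ± 0.41, adjusted p = 0.0226, edgeR). The difference was 2.39 ± 0.29 at 12 h and 1.68 ± 0.27 at 24 h, by when SAUR36 reached 17.97 to 20.7 CPM in the NAA50 line and 3.95 to 9.15 CPM in the scrambled line. The gene next to it, AT2G45220, differed by 3.44 at 0 h without passing (adjusted p = 0.0863) and by -1.37 at 12 h. AT4G04223 (chr4:2036511-2037816, plus strand), annotated as a non-coding RNA, read 5.26, 4.39 and 6.44 CPM against 1.23, 1.29 and 1.98 CPM (1.83 ± 0.30, adjusted p = 0.0226, edgeR). A transcript of AT3G56210 matches 63.6% of AT4G04223 at 99.1% identity, so which of the 2 loci its reads come from is uncertain. Around each of the 5 genes, the 5 protein-coding genes on either side were looked up. Between 1 and 9 of the 10 could be tested at each place, and none of them was called at 0 h. With 0.0981% of all genes called, that was to be expected of so few genes. An unadjusted p under 0.05 (13.3% of all genes) was seen in 2 of 9 beside SAUR36, 2 of 7 beside MAF5 and 1 of 5 beside PGIP2. It was seen in 0 of 1 beside QQS and 0 of 8 beside AT4G04223. The called gene AT5G06865, next to PGIP2, is non-coding and was not among the genes looked up.

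The ABRE core ACGTG, on either strand of the 250 bases before the gene start, occurred in each of the 5 genes, against 23.8% of the 17915 tested protein-coding genes. The W-box core TTGAC, the letters bound by WRKY factors, occurred in none of the 5, against 45.0%, and the TGA-factor core TGACG in 3 (60%), against 19.6%. These are letter matches in windows of 5 genes and say nothing of binding. The stretch before MAF5, chr5:25997254-25997503 on the plus strand (RefSeq, TAIR10.1), is printed as the gene with the largest difference among the 5, with its ACGTG in capitals:
MAF5 upstream: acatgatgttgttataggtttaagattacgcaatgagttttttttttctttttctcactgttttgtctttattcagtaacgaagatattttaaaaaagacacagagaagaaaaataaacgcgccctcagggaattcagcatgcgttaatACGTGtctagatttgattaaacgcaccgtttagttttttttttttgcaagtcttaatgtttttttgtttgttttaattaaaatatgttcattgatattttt

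**Figure D3:**
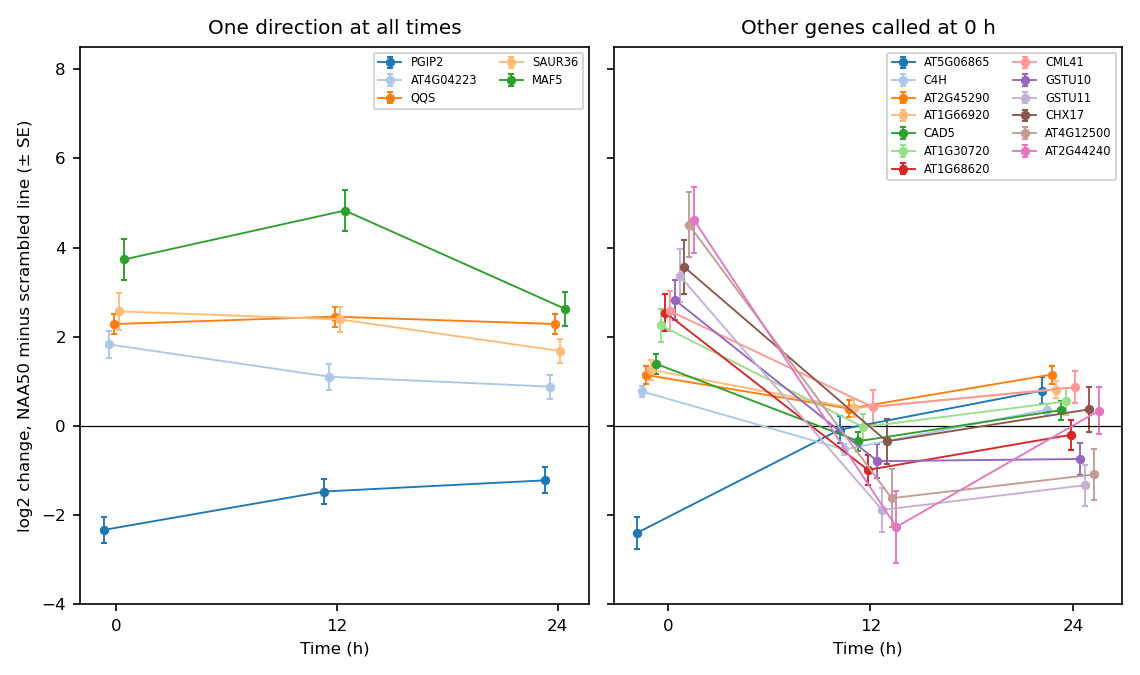
Line difference (log2, NAA50 minus scrambled) at 0, 12 and 24 h with its SE from the edgeR fit, 3 libraries a line and time, for the 5 genes called in one direction at all times (left) and the other 13 genes called at 0 h (right); points are offset sideways for legibility. The panels were split by the calls at all times, so the left values keep their side of 0. On the right the 12 values above 0 at 0 h lie between -2.27 and 0.42 at 12 h.

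Of the remaining 12 genes higher in the NAA50 line at 0 h, none was called higher at 12 h. At that time 4 were called lower (GSTU11, C4H, AT1G68620 and AT2G44240). These 4 made up 25% of the 16 genes higher at 0 h. Among all 18344 tested genes, 4466 were called lower at 12 h, a share near that 25%, and neither share was tested. At 24 h, 3 of the 12 were called higher again (C4H, AT1G66920 and AT2G45290). GSTU10 and GSTU11 encode tau-class glutathione transferases, which conjugate glutathione to reactive compounds. GSTU11 read 7.72, 7.74 and 6.76 CPM in the NAA50 line and 0, 0.644 and 1.44 CPM in the scrambled line (3.37 ± 0.59, adjusted p = 0.0377, edgeR). At 12 h it was lower in the NAA50 line, at 1.65 to 2.42 CPM against 4.23 to 8.97 CPM (-1.89 ± 0.50, adjusted p = 0.00595), and at 24 h the difference was -1.33 ± 0.46 (adjusted p = 0.0261). GSTU10 read 12.6, 12.23 and 16.5 CPM against 1.13, 0.644 and 3.87 CPM (2.82 ± 0.46, adjusted p = 0.0226), and its differences of -0.79 at 12 h and -0.74 at 24 h did not pass. A gene on the opposite strand overlaps 22.6% of GSTU10.

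AT4G12500 encodes a small lipid-transfer protein of the AZI1 and EARLI1 cluster on chromosome 4, whose best-known members take part in systemic immunity. Its level was 10.2, 9.17 and 7.64 CPM in the NAA50 line and 0.189, 0.215 and 0.720 CPM in the scrambled line, a log2 difference of 4.51 ± 0.73 (adjusted p = 0.0226, edgeR). All 4 tested members of the cluster lay above 0 (median 2.80, all genes 0.004), but AT4G12500 alone passed. AT4G12490 read 93.7, 55.5 and 41.3 CPM against 0.189, 6.76 and 10.2 CPM (3.47 ± 0.74, adjusted p = 0.0899). EARLI1 read 34.4, 12.23 and 8.93 CPM against 0.471, 2.58 and 9.37 CPM, so its ranges overlapped (2.14 ± 0.68, adjusted p = 0.230). AZI1 read 1.61, 5.73 and 1.21 CPM against 0.471, 1.07 and 0.901 CPM (1.77 ± 0.60, adjusted p = 0.254). By 12 h AZI1 and EARLI1 differed by 4.70 and 4.58 and passed, while AT4G12500 (-1.62, adjusted p = 0.0522) and AT4G12490 (-0.10, adjusted p = 0.918) did not. AT4G12490 is overlapped by a gene on the opposite strand.

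CHX17, a cation and proton exchanger of internal membranes, read 24.09, 34.1 and 46.7 CPM in the NAA50 line and 1.89, 0.215 and 6.48 CPM in the scrambled line (3.56 ± 0.60, adjusted p = 0.0281, edgeR). CML41, a calmodulin-like protein that acts in the closing of plasmodesmata during defence, read 20.4, 20.3 and 21.2 CPM against 2.17, 0.644 and 7.29 CPM (2.57 ± 0.44, adjusted p = 0.0359). The NAA50-line values of CML41 were nearly equal while the scrambled ones spread widely, with scrambled library 2 lowest and scrambled library 3 highest. Scrambled library 3 was the highest of its line in GSTU10, GSTU11, CHX17 and CML41. The same held for SAUR36, AT4G04223, AT4G12500, C4H, CAD5, AT2G44240, AT1G68620 and PGIP2. In QQS, MAF5 and AT5G06865 scrambled library 2 was the highest. In the scrambled line CML41 read 12.19 to 17.9 CPM at 12 h and 43.7 to 55.3 CPM at 24 h, and CHX17 read 19.3 to 26.0 CPM at 12 h, each above its 0 h range.

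Cinnamate 4-hydroxylase (C4H) carries out an early step of the phenylpropanoid pathway towards lignin and flavonoids, and cinnamyl alcohol dehydrogenase 5 (CAD5) the last reduction to lignin monomers. C4H was the most precisely measured of the called genes, at 171, 174 and 219 CPM against 93.7, 111 and 125 CPM (0.77 ± 0.12, adjusted p = 0.0226, edgeR). It was lower in the NAA50 line at 12 h (-0.53 ± 0.12, adjusted p = 0.00186) and higher again at 24 h (0.36 ± 0.12, adjusted p = 0.0191). CAD5 read 42.2, 34.2 and 53.8 CPM against 14.6, 13.1 and 21.8 CPM (1.39 ± 0.23, adjusted p = 0.0226) and did not pass later.

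The other 5 are known mainly by the family of their product. AT2G44240, annotated as a protein with a domain of unknown function, had the largest change, at 8.82, 37.7 and 18.5 CPM against 0.848, 0.322 and 1.35 CPM (4.63 ± 0.74, adjusted p = 0.0226, edgeR), and was lower in the NAA50 line at 12 h (-2.27 ± 0.81, adjusted p = 0.0307). AT1G68620, an alpha/beta hydrolase, read 27.1, 20.3 and 21.6 CPM against 1.89, 2.68 and 7.11 CPM (2.54 ± 0.41) and was also lower at 12 h (-0.99 ± 0.35, adjusted p = 0.0280). AT1G30720, a berberine bridge enzyme-like oxidase, differed by 2.25 ± 0.37 at 0 h and by -0.03 ± 0.30 at 12 h. The protein kinase gene AT1G66920 (1.26 ± 0.22) and the transketolase gene AT2G45290 (1.14 ± 0.20, adjusted p = 0.0488, edgeR) did not pass at 12 h. Both were called higher at 24 h (0.81 and 1.15). A change of the difference from 0 h was called for AT1G66920 at 12 h only, and for AT2G45290 at neither time. Their NAA50-line levels at 0 h were 21.1 to 26.1 CPM and 8.22 to 9.93 CPM, against 7.62 to 13.1 CPM and 3.97 to 4.14 CPM.

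The change in the line difference from 0 h was itself called in 12 of the 18 genes at 12 h, where it was called in 25.0% of all genes, and in 10 at 24 h, against 29.7%. The 0 h libraries that picked these genes enter that test, so the count describes them and carries no separate weight.

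The W-box core TTGAC occurred in the 250 bases before 9 of the 12 genes (75.0%), against 45.0% of all, the TGA-factor core TGACG in 6 (50.0%), against 19.6%, and the ABRE core ACGTG also in 6 (50.0%), against 23.8%. ACGTG and TGACG were thus above their shares over all genes in these 12 as well as in the 5 genes called at all times. Both strands were searched, and the letters TTGACG hold both cores. AT2G44240, AT1G68620 and CML41 had no TTGAC in this window. The window of GSTU11, chr1:26338819-26339068 (minus strand), is shown as an example of a gene with a match, 5′ to 3′ on the strand of the gene, with TTGAC or its complement GTCAA in capitals (RefSeq, TAIR10.1):
GSTU11 upstream: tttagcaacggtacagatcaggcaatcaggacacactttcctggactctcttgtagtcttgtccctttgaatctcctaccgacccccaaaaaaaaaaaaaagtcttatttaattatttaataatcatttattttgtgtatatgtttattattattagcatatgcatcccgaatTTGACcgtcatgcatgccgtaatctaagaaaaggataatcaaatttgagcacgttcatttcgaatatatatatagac

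How far each call rested on the fit was followed through 13 alternatives, among them the removal of each of the 6 libraries in turn. QQS, MAF5 and PGIP2 were called in 12 of the 13, including all 6 removals, and missed only in the fit to the 6 libraries alone (adjusted p of 0.109, 0.109 and 0.355). Their log2 differences ranged from 2.14 to 2.47 for QQS, from 3.40 to 4.38 for MAF5 and from -2.61 to -2.03 for PGIP2. C4H was called in 9 alternatives, AT2G44240 and AT5G06865 in 8, AT2G45290 in 5 and the other 11 genes in 7. Each of these 15 genes lost its call without scrambled library 2 and without NAA50 library 3. Without scrambled library 1 all of them but AT5G06865 lost it too, and without NAA50 library 1 all but C4H and AT2G44240. All 15 kept it without scrambled library 3 or NAA50 library 2.

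**Figure D4:**
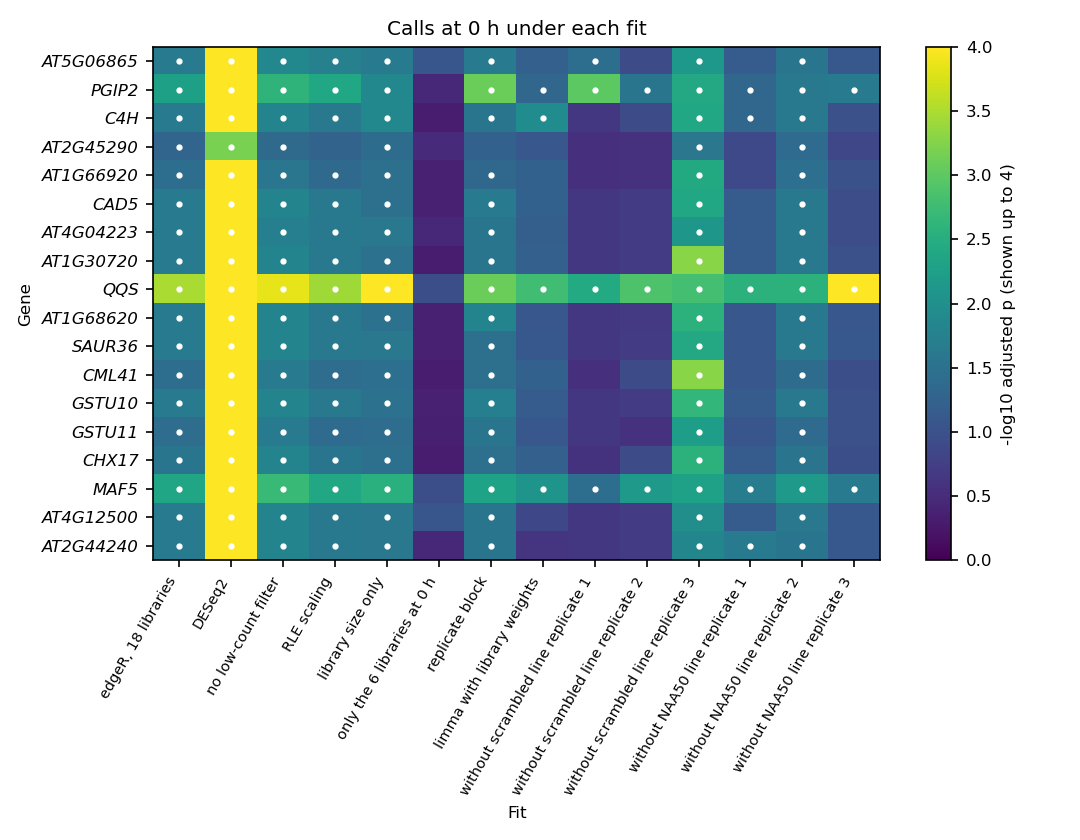
Adjusted p at 0 h (colour, -log10 scale, shown up to 4) of the 18 called genes (rows) in the fit reported here and in 13 alternative fits (columns), with a white dot where the adjusted p was under 0.05. QQS, MAF5 and PGIP2 carry a dot in every column but the fit to the 6 libraries alone.

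Beyond the called genes, lists of genes for hormone, defence, stress, growth and photosynthesis pathways were read by library. Of the 34 lists, 4 held a called member: the AZI1 and EARLI1 cluster, the PGIP locus, the floral repressors and the oxidative stress list, in which GSTU10 and GSTU11 were 2 of 24. In all other lists none passed, and their medians are descriptions. The oxidative stress list had a median change of 0.65. Of its 24 members, 10 were higher at an unadjusted p under 0.05 (8.05% of all genes). Above without overlap lay 9 (8.43%), and both counts include the 2 called genes. The ethylene-jasmonate defence list (8 tested, all above 0) had a median of 1.32, with 2 members above without overlap (8.43%). Per library, a list is summarised by its mean log2 CPM relative to the mean of the 6 libraries.

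The dehydrin and cold-regulated list, genes of dehydration and cold protection, had a median change of 1.25 over 16 members, with 11 higher at an unadjusted p under 0.05 (8.05% of all genes) and 0 lower (5.22%), yet 1 member alone lay above without overlap (8.43%). The value came from one library: the list stood at 2.85 in NAA50 library 3, at -0.15 and -0.86 in NAA50 libraries 1 and 2, and at -0.75, -0.81 and -0.27 in the scrambled line. Without NAA50 library 3 the median change was -0.05. RD29A, a desiccation-responsive gene, read 27.7, 14.0 and 787 CPM in NAA50 libraries 1 to 3 and 13.4, 9.45 and 14.3 CPM in the scrambled ones (4.48 ± 1.06, adjusted p = 0.118, edgeR). RD29B, its neighbour, read 1.1, 0.573 and 109 CPM against 1.04, 0.215 and 1.62 CPM, and its change of 5.21 turned to -0.22 without NAA50 library 3. The late embryogenesis gene LEA7 read 1.95, 0 and 320.7 CPM against 0 in all 3 scrambled libraries. The dehydrin LTI30 followed with 3.56, 1.34 and 146 CPM against 1.04 to 1.93 CPM.

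Other stress genes were high in the same library. ADH1, the alcohol dehydrogenase of low-oxygen metabolism, read 136 CPM in NAA50 library 3 and 1.40 to 4.84 CPM in the other 5. HAI1, a phosphatase induced by abscisic acid, read 10.7, 0.955 and 108 CPM in the NAA50 line and 0.107 to 2.07 CPM in the scrambled line. The abscisic acid list (25 members, median 0.78) stood at 1.22 in NAA50 library 3, 0.59 and -0.38 in the other 2 of its line, and -0.75 to -0.09 in the scrambled line, with a median change of 0.39 without NAA50 library 3. The ACGTG core was found before 9 of the 16 dehydrin-list genes (56.2%) and 13 of the 25 abscisic acid genes (52.0%), against 23.8% of all. The 250 bases before RD29B, chr5:21236771-21237020 on the plus strand, hold 4 matches, in capitals, and are printed as the list's best-known ABRE promoter (RefSeq, TAIR10.1):
RD29B upstream: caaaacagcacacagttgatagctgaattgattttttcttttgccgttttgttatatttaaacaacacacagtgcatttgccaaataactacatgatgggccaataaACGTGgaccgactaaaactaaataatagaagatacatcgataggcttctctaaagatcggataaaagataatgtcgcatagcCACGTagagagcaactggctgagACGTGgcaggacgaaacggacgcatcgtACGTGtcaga

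**Figure D5:**
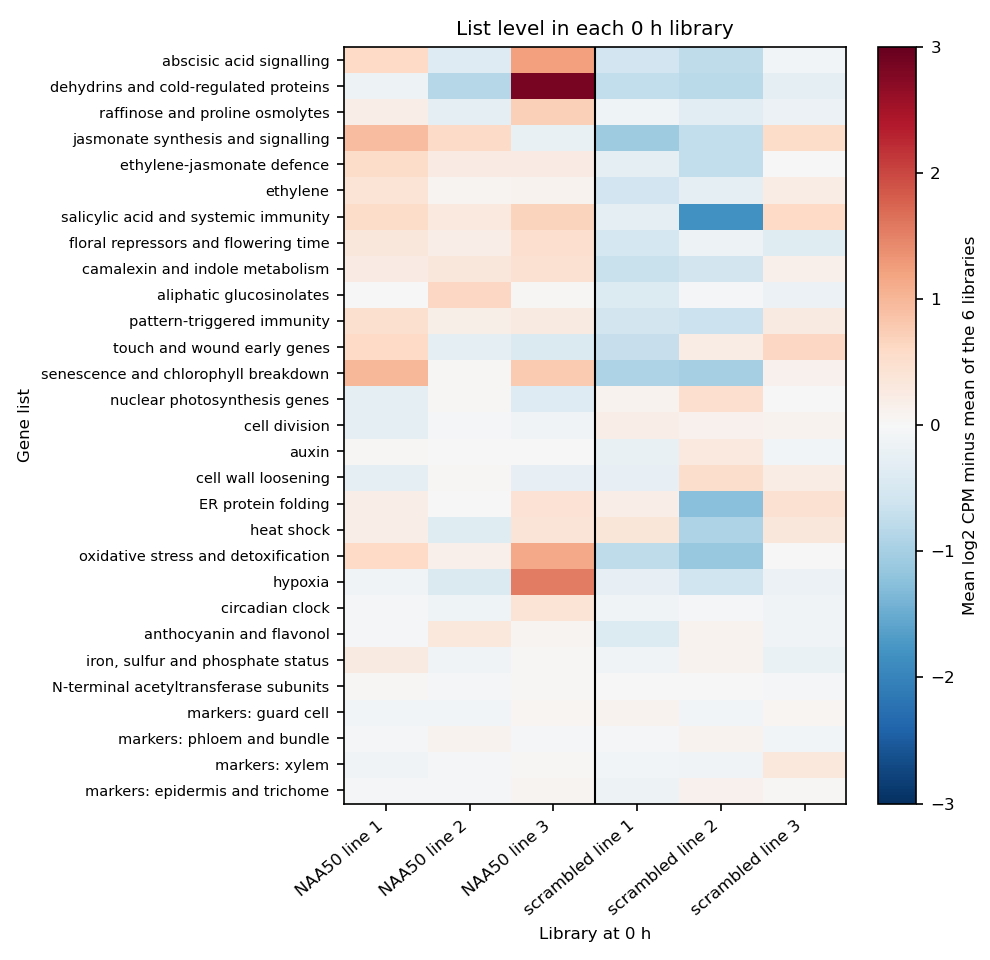
Mean log2 CPM of the tested members of each gene list (rows, lists with at least 5 tested members) in each 0 h library (columns), relative to the mean of the 6 libraries. Dehydrins reach 2.85 in NAA50 library 3, and the salicylic acid list -1.81 in scrambled library 2, while cell-type markers stay near 0.

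Scrambled library 2 stood apart in the opposite way. The salicylic acid and systemic immunity list (30 members, median change 0.51, 29 above 0) stood at -1.81 in this library and between -0.30 and 0.66 in the other 5, and its median change was 0.16 without it and 1.1 without scrambled library 3. PR1, the classical salicylic acid marker, read 556, 602 and 749 CPM in the NAA50 line and 171, 22.8 and 457 CPM in the scrambled line (1.55 ± 0.67, adjusted p = 0.351, edgeR). ALD1, which makes the precursor of the systemic signal N-hydroxypipecolic acid, read 2.36 CPM in scrambled library 2 and 30.3 to 63.3 CPM elsewhere. The ER protein folding list (23 members, median 0.17) stood at -1.25 in this library and -0.02 to 0.46 in the others, and its median was -0.20 without it. BIP3, an ER chaperone induced by unfolded proteins, read 6.87 CPM there and 58.3 to 145 CPM elsewhere, and its change of 0.20 turned to -0.34 without that library.

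Jasmonate genes (23 tested, median 0.75) all had changes above 0. At an unadjusted p under 0.05, 5 were higher (8.05% of all genes) and 0 lower (5.22%). Separate ranges were seen in 2 (8.43% of all genes lay above without overlap), a share near the background. The list level was 0.92, 0.57 and -0.23 in the NAA50 line and -1.07, -0.74 and 0.55 in the scrambled line, so the lines overlapped. The median ran from 0.40 without NAA50 library 1 to 1.67 without scrambled library 3. LOX2, the chloroplast lipoxygenase that starts jasmonate synthesis, read 650, 1032 and 517 CPM against 238, 229 and 568 CPM (1.09 ± 0.37, adjusted p = 0.254, edgeR). Senescence genes (17 tested, median 0.94, all above 0) included 8 with separate ranges (against 8.43% of all genes), and the median ran from 0.56 without scrambled library 2 to 1.56 without scrambled library 3. SAG13, a senescence-associated dehydrogenase, read 314, 165 and 172 CPM against 22.4, 13.7 and 100.2 CPM (2.25 ± 0.57, adjusted p = 0.141). The camalexin and indole list (20 tested) had a median of 0.38 and 6 members with separate ranges (against 8.43%), among them CYP71A12, a camalexin pathway enzyme, at 10.01, 9.55 and 8.85 CPM against 0.283, 0.537 and 2.61 CPM (3.0 ± 0.65, adjusted p = 0.0899).

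Photosynthesis and growth lists had medians below 0 with no called member. All 42 nuclear photosynthesis genes had changes below 0, from -0.66 to -0.25 with a median of -0.41 (-0.25 without scrambled library 2), and 15 of them had separate ranges, against 7.29% of all genes lying below without overlap, but none passed. Their summed level was 148832, 181864 and 136163 CPM in the NAA50 line and 189136, 252150 and 179878 CPM in the scrambled line. NAA50 library 2 thus exceeded scrambled library 3, and scrambled library 2 was the highest of the 6. RBCS2B, a small subunit of Rubisco, read 1993, 2824 and 1719 CPM against 2847, 4500 and 2645 CPM (-0.61 ± 0.28, adjusted p = 0.366, edgeR), and is nearly identical to RBCS3B. PORA, an etiolation-phase enzyme of chlorophyll synthesis, came next below the PGIP locus genes among genes with a mean log2 CPM of at least 1 and separate ranges, at 1.02, 2.1 and 3.54 CPM against 6.41, 10.2 and 6.30 CPM (-1.77 ± 0.35, adjusted p = 0.0659). Medians were -0.30 over 17 cell division genes, -0.34 over 16 auxin genes and -0.55 over 16 cell wall loosening genes, and 0.02 over 18 clock genes. Without scrambled library 2 the auxin median was 0.01 and the cell division median -0.16, and without NAA50 library 1 the latter was -0.14.

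Markers of other cell types gave no called gene. Medians were 0.06 for 9 guard cell, 0.07 for 9 phloem and bundle, -0.09 for 7 xylem and -0.11 for 8 epidermis and trichome markers (0.07 without scrambled library 2; guard cell -0.09 without NAA50 library 3), and the levels of these 4 lists stayed between -0.15 and 0.31 in every library. No flower or root marker had enough counts to test, and 1 of 8 shoot meristem markers did. That gene, ANT, a growth regulator of young organs, was low, at 1.103, 1.43 and 1.29 CPM in the NAA50 line and 3.11, 2.47 and 2.07 CPM in the scrambled line, without overlap (-0.997 ± 0.50, adjusted p = 0.396, edgeR). With no filter on low counts the median over the meristem list was 0.92. The summed level of guard cell markers was 1135 to 1259 CPM in the NAA50 line and 1234 to 1677 CPM in the scrambled line, and the part of cell composition in the differences above was not tested. In bulk leaf tissue, fewer cells of a type and less RNA per cell cannot be told apart.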

How the data were processed

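RNA-seq counts of 18 leaf libraries (2 lines, 3 times, 3 libraries each) were used. The authors deposited 1 table of unnormalized read counts, with a row for each gene. Per the submitters' processing notes, Trimmomatic, STAR and DESeq2 were used with the build TAIR10, without versions. How reads were counted (program, strand, annotation) is not given in the sources used here. Gene names, positions and sequences came from RefSeq TAIR10.1, in which 98.78% of the identifiers (23500) were found. Copies were searched with BLAST 2.17.0.

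The analysis used edgeR 4.0.16 under R 4.3.3. The filterByExpr rule (minimum count 10, minimum total 15) left 18344 genes (77.11%), and TMM scaled the libraries. A model with a mean for each line and time took in all 18 libraries (biological coefficient of variation 18.16%, 12 residual degrees of freedom), and the line difference at each time and its change from 0 h were put to the quasi-likelihood F test. Calls have a Benjamini-Hochberg adjusted p under 0.05 over all tested genes. CPM are TMM-scaled, log2 CPM use a prior count of 2, and totals and floors are given with the results. The code was tested on simulated data. Alternatives used DESeq2 1.42.0, limma 3.58.1, other filters and scalings, a replicate block, the 6 libraries alone and the removal of each library.

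Named are NAA50, every gene called at 0 h, members of 34 gene lists (up to 4 with the smallest p, and all of 3 lists), the largest separated changes, the most variable genes and the most abundant ones. Not every gene that this rule picks is printed. The comparison, the lists and the rule were chosen with earlier results of these data known. Same-numbered libraries of the lines at 0 h correlated at -0.211, 0.328 and 0.103 in their deviations, and differently numbered ones at -0.305 to 0.227. Deviations from a mean of 3 libraries are tied to each other, so these values cannot decide whether the numbers mark pairs. The fit reported here did not take the numbers as pairs, and the fit with them as a block called 36 genes at 0 h.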

Additional observations from a re-analysis of the deposited data

Results flagged for a closer look

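Among the 18 genes called at 0 h, the line difference at a later time minus that at 0 h was itself called in 12 genes at 12 h and 10 at 24 h (edgeR, adjusted p under 0.05). The 0 h libraries that chose the genes enter each of these values, given here in log2 units. For AT2G44240 the shifts at 12 and 24 h were -6.90 and -4.29, the adjusted p being 0.000428 and 0.00324. For AT4G12500 it was -6.13 and -5.60, the adjusted p being 0.000467 and 0.000517. The glutathione transferase genes shifted by -5.26 and -4.70 (GSTU11) and by -3.62 and -3.57 (GSTU10), with adjusted p between 0.000233 and 0.000567. CHX17 shifted by -3.91 and -3.19, AT1G68620 by -3.53 and -2.75, AT1G30720 by -2.28 and -1.71, CML41 by -2.15 and -1.71 and CAD5 by -1.74 and -1.04. Their adjusted p ranged from 0.000304 to 0.0354. C4H shifted by -1.30 at 12 h (adjusted p = 7.16e-05) and AT1G66920 by -0.86 at 12 h (adjusted p = 0.0420), and neither shift was called at 24 h. AT5G06865, the gene lower at 0 h, shifted upwards by 2.31 and 3.19, the adjusted p being 0.00245 and 0.000170.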

How the results depend on the processing

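The numbers of genes higher and lower at 0 h, 16 and 2 as reported, became 282 and 26 with DESeq2, 30 and 2 with no filter on low counts, 33 and 3 with the replicate number as a block, 3 and 2 with limma and library weights, and 0 and 0 in the fit to the 6 libraries alone. Leaving out 1 library gave 2 to 312 higher and 1 to 42 lower. The 0 h calls called in the same direction at 12 h (5 as reported) numbered 105 with DESeq2, 10 with no filter, 8 with library size as the only scaling, 9 with the block and 3 with limma, and 3 to 89 with 1 library left out. At 24 h (8 as reported) they numbered 129 with DESeq2, 15 with no filter and 4 with limma, and 3 to 123 with 1 library left out. Genes in one direction at all 3 times (5) numbered 90 with DESeq2, 9 with no filter, 8 with library size alone, 8 with the block and 3 with limma, and 3 to 78 with 1 library left out. With DESeq2, no filter, library size alone and without scrambled library 3 or NAA50 library 2, all 18 genes stayed called. The NAA50 difference kept its sign and did not pass in any alternative (-0.21 to -0.06). Of 532 gene values, 412 kept direction and side of the threshold, 91 lost it, 21 gained it and 8 changed sign. The 8, none past the test, were BIP3 without scrambled library 2 or NAA50 library 3 (-0.34 to 1.15 over the 6 removals), ALD1 without scrambled library 2 (-0.13 to 0.97), RD29B without NAA50 library 3 (-0.22 to 5.81), MAF1 (-0.013 to 0.088) and MAF2 (-0.019 to 0.10) without NAA50 library 1, and MAF3 without scrambled library 3 (-0.16 to 0.042) and with library size alone (0.042). The cause of these shifts was not tested. An observed 0 cannot be told from a level of up to about 0.3 CPM at this depth, by counting error alone.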
